A study of Arabidopsis thaliana with 24 samples.

Results

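The aliphatic glucosinolate synthesis genes of Arabidopsis thaliana, 10 of the 27782 genes in the deposited table, were followed across all libraries. They were taken as a list of locus identifiers known from the pathway, and 8 of them encode enzymes and 2 encode transcription factors. No measured value entered the rule, but earlier results of these data were known when the list was chosen. Calls among the 10 genes are therefore no independent support. All 10 passed the filter on low values in every comparison. Glucosinolates are sulfur-rich defence compounds of the cabbage family, and the aliphatic class is built from methionine. The amino acid is first lengthened by added carbon units in the chloroplast, then converted to the glucosinolate core outside it, and finally modified in its side chain. When tissue is damaged, enzymes called myrosinases release toxic isothiocyanates or nitriles from the stored compounds, and R2R3-MYB factors switch on most genes of the pathway together.

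Messenger RNA of whole 14-day-old seedlings in the Col0 accession was sequenced in 24 libraries, 3 in each of 8 groups, which the labels call biological triplicates. Batches 1 to 3, labelled 2018, held dne1, an insertion mutant that the labels name Salk132521 and dne1-1. They also held OE1 and OE2, a pair of transgenic lines expressing a GFP fusion of DNE1 from the cauliflower mosaic virus 35S promoter, which is active in most tissues, and wild type (WT). Batches 4 to 6, labelled 2019, held libraries labelled vcs-6 and WT. Batches 7 to 9, labelled 2019, held a single line with the same kind of fusion carrying the substitution D153N in DNE1, and WT. DNE1 is an endoribonuclease that associates with the mRNA decapping machinery, and VARICOSE (VCS) is a scaffold of that machinery. Beyond "biological triplicates" nothing says how the plants of a library were grown or pooled, so the p-values rest on the spread among these libraries, which may be partly technical.

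Recovered reads ran from 36714564 to 70561391 per library in 2018 and from 22611653 to 53908600 in 2019. DNE1 transcripts averaged 309 ± 50.1 normalized counts in dne1, 21228 ± 2138 in OE1 and 19980.1 ± 2005 in OE2, against 1462 ± 146 in WT of the same batches (SD, n = 3 each). DNE1 averaged 15781 ± 3211 in the D153N line, against 819.7 ± 29.6 in its WT. VCS averaged 8115 ± 632 in the libraries labelled vcs-6, against 5282 ± 600 in WT, so its transcript level was higher there and not reduced. In the D153N line VCS was lower, at 3501 ± 172 against 4999 ± 306 in its WT. Reads were counted per gene, which cannot tell an intact transcript from a defective one, so no value here checks the vcs-6 genotype. Values below are the authors' normalized read counts, scaled separately for 2018 and 2019, so that levels are set against WT of the same batches only. Changes are log2 ± SE from limma on log2 of the normalized count plus 1. The adjusted p is limma's, adjusted by the Benjamini-Hochberg method across every gene in the test, and a gene was called when it lay under 0.05.

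The 10 genes lie on all 5 chromosomes of the reference assembly TAIR10.1, and 4 of them stand in 2 pairs of tandem neighbours. MAM1 (AT5G23010, chr5:7703041-7706973, plus strand) and MAM3 (AT5G23020, chr5:7718118-7721866, plus strand, named IMS2 by RefSeq) are 11144 bases apart with no annotated gene between them. CYP79F2 (AT1G16400, chr1:5605044-5607498, plus strand) and CYP79F1 (AT1G16410, chr1:5608682-5612064, plus strand) are 1183 bases apart. The others are BCAT4 (AT3G19710, chr3:6846969-6849582, minus strand), CYP83A1 (AT4G13770, chr4:7990429-7992429, minus strand) and SUR1 (AT2G20610, chr2:8877887-8880440, minus strand). UGT74C1 (AT2G31790, chr2:13518199-13520364, plus strand), MYB28 (AT5G61420, chr5:24689069-24691187, minus strand) and MYB29 (AT5G07690, chr5:2446669-2448584, plus strand) complete the list. Each span is the annotated gene with its exons, introns and UTRs. MAM1 and MAM3 share none of their words of 31 bases with another transcript, so their reads can be told apart. CYP79F1 shares 5.60% of its words and CYP79F2 shares 7.65%, in both cases most with its neighbour. BCAT4 overlaps AT3G19700 on the opposite strand by 307 bases and UGT74C1 overlaps opposite-strand genes by 265 bases. The strand setting of read counting is not given in the sources used here, so reads of these overlaps cannot be assigned and both values are uncertain to that extent.

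The 250 bases before each annotated start were searched on both strands for CACGTG, the core bound by bHLH factors such as the MYC proteins that work with MYB28 and MYB29, and for ACCTACC and ACCAACC, sites of the kind R2R3-MYB factors bind. CACGTG, which reads the same on both strands, was in 2 of the 10 windows and in 6.46% of 27561 windows of protein-coding genes. ACCTACC was in 2 of the 10 and in 1.17% of these 27561, and ACCAACC was in 0 of the 10 and in 2.70% of them. The motifs do not overlap each other. A match is a description of the letters and not a binding site. The 3 windows with a match are shown, so that the place of each match can be seen. They are RefSeq TAIR10.1 sequence, 5′ to 3′ on the gene's own strand, ending at the base before the annotated start, with matches in capitals. CYP83A1 holds GGTAGGT, the reverse complement of ACCTACC, and CACGTG, 71 and 43 bases before the start. SUR1 holds CACGTG 50 bases before it, and CYP79F2 holds ACCTACC 104 bases before it.
CYP83A1 (chr4:7992430-7992679, minus strand): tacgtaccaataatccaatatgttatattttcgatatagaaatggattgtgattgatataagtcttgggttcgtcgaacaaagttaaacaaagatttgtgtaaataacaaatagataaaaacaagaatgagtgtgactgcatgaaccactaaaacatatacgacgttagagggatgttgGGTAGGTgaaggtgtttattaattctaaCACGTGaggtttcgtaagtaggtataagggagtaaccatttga
SUR1 (chr2:8880441-8880690, minus strand): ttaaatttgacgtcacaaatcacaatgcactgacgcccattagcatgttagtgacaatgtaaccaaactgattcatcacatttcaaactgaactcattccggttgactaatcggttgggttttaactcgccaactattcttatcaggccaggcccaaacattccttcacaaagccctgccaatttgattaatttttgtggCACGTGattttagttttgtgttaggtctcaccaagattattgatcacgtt
CYP79F2 (chr1:5604794-5605043, plus strand): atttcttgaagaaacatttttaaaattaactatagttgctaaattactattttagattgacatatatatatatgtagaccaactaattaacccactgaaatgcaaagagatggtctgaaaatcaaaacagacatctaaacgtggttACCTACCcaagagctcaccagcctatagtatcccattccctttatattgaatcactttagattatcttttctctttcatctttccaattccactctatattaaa

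Per kilobase of transcript, the level in WT of batches 1 to 3 was highest for MAM1, at 9131 ± 3156 normalized counts per kilobase (SD, n = 3). CYP83A1 had 7393 ± 851, BCAT4 6887 ± 1647, SUR1 4741 ± 893 and CYP79F1 3977 ± 1013 on the same scale. MAM1, CYP83A1 and BCAT4 lay within their SDs of one another, as did SUR1 and CYP79F1. The activators had 2318 ± 49.3 (MYB28) and 1094 ± 407 (MYB29), and UGT74C1 had 1657 ± 116. MAM3, with 559.8 ± 120, and CYP79F2, with 473.2 ± 107, were lowest and within their SDs of each other. In each tandem pair the copies differed widely, with MAM3 far below MAM1 and CYP79F2 far below CYP79F1.

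**Figure D1:**
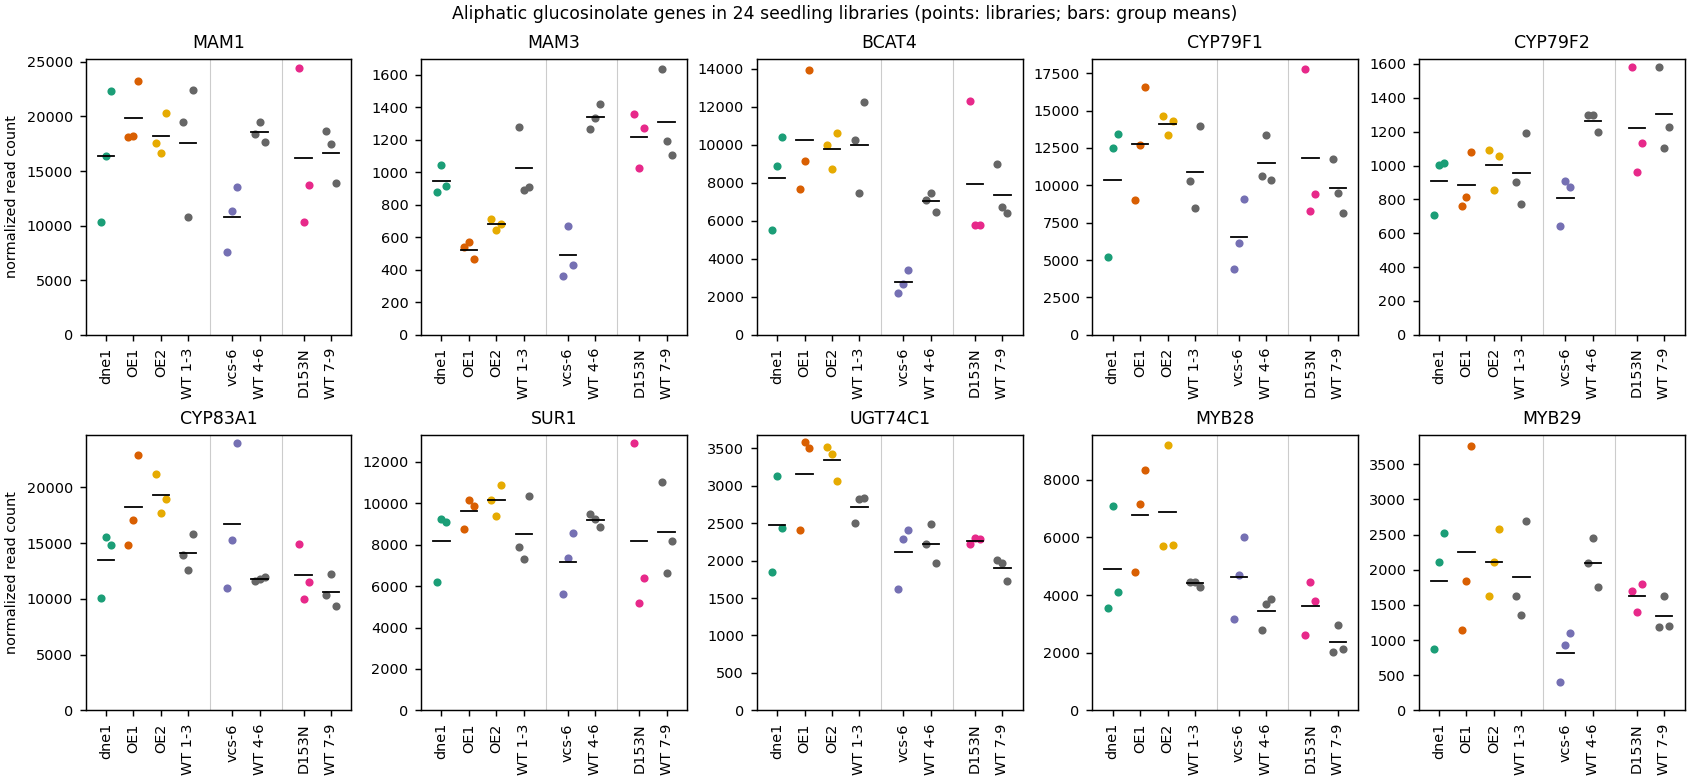
Normalized read count (linear axis from 0) of the 10 genes in each of the 24 libraries, with a bar at the mean of each group of 3; grey lines part the batch sets, and each line stands left of its WT. MAM3 is lower in OE1 and OE2 than in every WT library of batches 1 to 3, and 7 of the 10 genes are lower in all 3 libraries labelled vcs-6 than in all 3 WT libraries.

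The libraries labelled vcs-6 asked what the decapping scaffold mutant changes in this pathway. Of the 10 genes 6 fell and none was called higher, in a comparison that called 51.5% of all 21351 genes and 24.8% of them lower. The genes that fell were BCAT4, MAM1 and MAM3 of chain elongation, CYP79F1 and CYP79F2 at the entry to the core, and the activator MYB29. The later core genes CYP83A1, SUR1 and UGT74C1 and the activator MYB28 did not pass the test. The median change of the 10 genes was -0.74, and that of all genes tested was 0.003. In whole seedlings, fewer cells of a type and less RNA per cell cannot be told apart, here and in all comparisons below.

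BCAT4, the aminotransferase that turns methionine into its keto acid, had 2204, 2662 and 3410 normalized counts in the 3 libraries labelled vcs-6, against 7106, 7469 and 6486 in WT of batches 4 to 6. Every library labelled vcs-6 lay below every WT library, as for 7 of the 10 genes and for 30.6% of all genes (61.9% did not overlap in either direction), and the mean was 39.3% of WT. The change was -1.37 ± 0.16 (adjusted p = 0.00038).

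MAM1 and MAM3 are methylthioalkylmalate synthases, which add the carbon unit in each round; MAM1 serves short chains and MAM3 all chain lengths. MAM1 had 7542, 11317 and 13508 normalized counts in the libraries labelled vcs-6, against 18368, 19521 and 17694 in WT. MAM3 had 363.0, 670.5 and 430.8, against 1267, 1334 and 1419 in WT. For both genes the groups did not overlap, and MAM1 was lowest in the first of the libraries labelled vcs-6, called library a here from its place in the table. MAM1 fell by 0.82 ± 0.21 (adjusted p = 0.012) and MAM3 by 1.50 ± 0.22 (adjusted p = 0.00088), to 58.2% and 36.4% of the WT mean.

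CYP79F1 and CYP79F2 are the cytochromes that turn elongated methionine into aldoximes; CYP79F1 accepts short and long chains and CYP79F2 long chains. CYP79F1 had 4428, 6121 and 9061 normalized counts in the libraries labelled vcs-6, against 10649, 13391 and 10356 in WT. CYP79F2 had 643.5, 908.0 and 874.2, against 1301, 1299 and 1195 in WT. Both genes were lower in all libraries labelled vcs-6 than in all WT libraries. CYP79F1 fell by 0.86 ± 0.25 (adjusted p = 0.022) and CYP79F2 by 0.66 ± 0.15 (adjusted p = 0.0075). Without library b labelled vcs-6 the call of CYP79F1 was lost (-0.85, adjusted p = 0.066).

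CYP83A1, which oxidizes the aldoximes in the next step, had 11003, 15251 and 23976 normalized counts in the libraries labelled vcs-6, against 11557, 11800 and 11947 in WT. Library a lay below all WT libraries and the others above them, in a group whose SD of 6614 was far wider than the 197 of WT. The change was 0.43 ± 0.25 and did not pass the test (adjusted p = 0.19); without library a it was 0.70 (adjusted p = 0.028).

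SUR1, the carbon-sulfur lyase shared with the indole branch, had 5598, 7364 and 8547 normalized counts in the libraries labelled vcs-6, against 9473, 9228 and 8831 in WT. The groups did not overlap, but the change of -0.38 ± 0.16 did not pass the test (adjusted p = 0.082); without library c it was -0.51 (adjusted p = 0.030). UGT74C1, a glucosyltransferase of the aliphatic branch, had 1625, 2294 and 2413, against 2217, 2492 and 1963 in WT. Its groups overlapped (-0.09 ± 0.17, adjusted p = 0.69), and its sign turned with library size as the only scaling (0.03).

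MYB29, an R2R3-MYB activator of the pathway, had 401.5, 929.7 and 1104 normalized counts in the libraries labelled vcs-6, against 2096, 2449 and 1751 in WT. All were below WT, with library a lowest, and the fall was 1.48 ± 0.35 (adjusted p = 0.0094), to 38.7% of the WT mean. MYB28, a related activator with overlapping targets, had 3157, 4700 and 6014, against 2798, 3690 and 3863 in WT. Its groups overlapped and the change of 0.39 ± 0.24 did not pass the test (adjusted p = 0.21); without library a it was 0.64 (adjusted p = 0.029).

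Within each library, MYB28 stood at 5.06 to 7.86 times MYB29 in the libraries labelled vcs-6 and at 1.33 to 2.21 times MYB29 in WT. CYP83A1 stood at 2.48 to 2.65 times CYP79F1 in the libraries labelled vcs-6 and at 0.881 to 1.15 times CYP79F1 in WT. The ranges do not overlap, and the second ratio was close to constant in the libraries labelled vcs-6 although CYP83A1 itself varied widely there. The 3 ratios shown were chosen after the values were seen and are a description without a test.

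**Figure D2:**
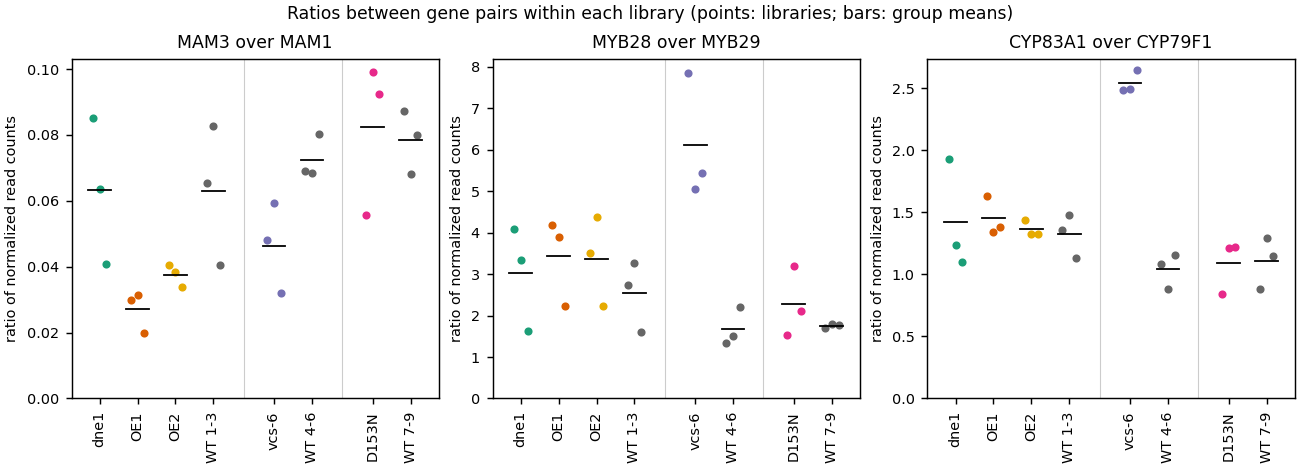
Ratio of normalized read counts between gene pairs (linear axis from 0) in each of the 24 libraries, with a bar at the mean of each group of 3. MAM3 over MAM1 is 0.0199 to 0.0405 in the 6 OE1 and OE2 libraries, and MYB28 over MYB29 and CYP83A1 over CYP79F1 are higher in the libraries labelled vcs-6 than in any other library.

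Markers of other organs moved in the same libraries, where 51.5% of all genes were called and 24.8% were called lower. Of 8 leaf markers 6 fell, and their summed normalized counts were 1032072 to 1327876 in the libraries labelled vcs-6, against 2304550.5 to 2861440 in WT. The sum of 11 root markers was 87378 to 116877, against 47460 to 57844 in WT. Of them 2 were called higher (PYK10 at 1.03 and SHR at 0.80) and 2 lower (NRT2.1 at -3.58 and PHO1 at -0.61). The median change of the 11 was -0.27, with 5 positive and 6 negative, so the higher sum does not describe most of the list. The sum of 7 vascular markers was 16452 to 25203, against 17282 to 18662 in WT, with 3 called higher, and 5 seed markers summed to 1606 to 6707, against 597.3 to 1110.1 in WT. Of the seed markers, EM1 (142 to 246 normalized counts in the libraries labelled vcs-6, against 0.977 to 4.32 in WT) passed the filter only through the libraries labelled vcs-6, and 3 of the other 4 were called higher. No marker of these lists was at 0 in all libraries of either group. Their part in the changes of the 10 genes was not tested.

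**Figure D3:**
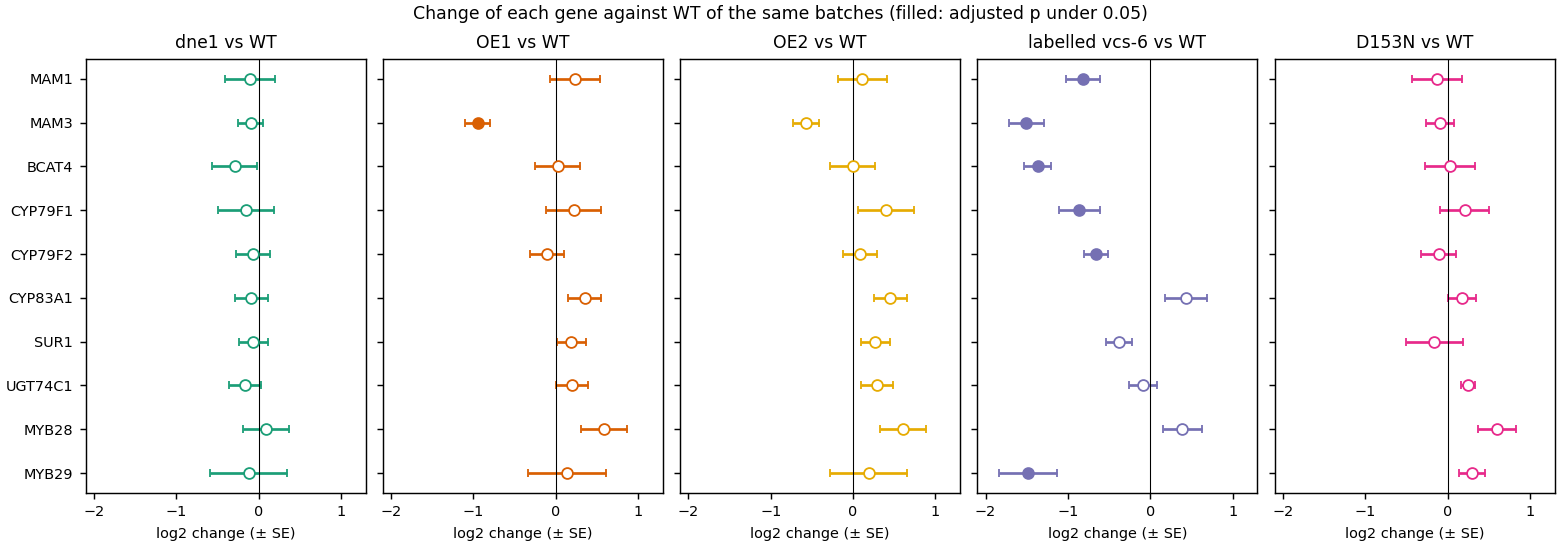
Log2 change ± SE (limma) of each gene in each line against WT of the same batches, on a linear log2 axis; filled points passed an adjusted p of 0.05. In the libraries labelled vcs-6 6 points are filled, all below 0; in OE1 MAM3 alone is filled, and in dne1, OE2 and the D153N line none is.

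The other genes of the aliphatic pathway, a list of 22 of which 21 were tested (AOP3, a side-chain enzyme, was too low), were read in the same comparison. In the libraries labelled vcs-6, 6 fell and 2 rose, with a median of -0.17. Over all genes tested there, 51.5% were called and 24.8% were called lower. GSTF11, a glutathione transferase of the core, fell by 2.34 ± 0.27 to 108.7 normalized counts, against 542.4 in WT (adjusted p = 0.00033). BAT5, which carries the keto acids into the chloroplast, fell by 1.39 ± 0.20 (adjusted p = 0.00088), and MYB76, the third activator of this class, by 1.35 ± 0.35 (adjusted p = 0.013). GSTU20, BCAT3 and IPMDH1 fell by 1.03, 0.60 and 0.66. GS-OH, which hydroxylates the side chain, rose by 1.27 ± 0.17 (adjusted p = 0.00060) to 75478 normalized counts, against 31170.2 in WT. FMO GS-OX5, which oxygenates its sulfur, rose by 0.83 ± 0.12 (adjusted p = 0.000814). The sulfotransferases SOT17 and SOT18 and the glucosyltransferase UGT74B1, which act at the end of the core, had changes of -0.40, -0.15 and -0.09 and were not called.

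**Figure D4:**
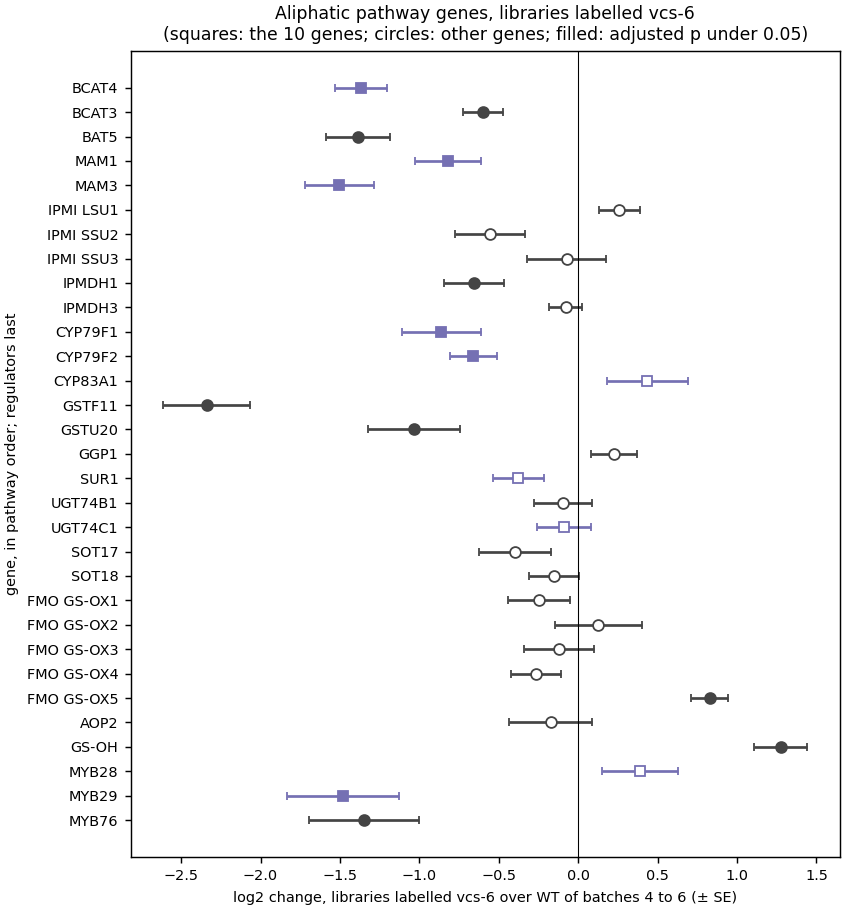
Log2 change ± SE (limma) in the libraries labelled vcs-6 over WT for 31 tested aliphatic pathway genes in pathway order, with squares for the 10 genes and circles for the other 21; filled symbols passed an adjusted p of 0.05. GSTF11 lies furthest to the left at -2.34 and GS-OH furthest to the right at 1.27.

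Of 15 genes of the indole branch, which starts from tryptophan and shares SUR1, 3 rose and 3 fell in the libraries labelled vcs-6. The comparison called 51.5% of all genes, and 24.8% lower. CYP81F1 rose by 2.04 ± 0.17 (adjusted p = 7.76e-05), the activator MYB34 by 1.41 ± 0.16 (adjusted p = 0.00028) and CYP83B1, the indole counterpart of CYP83A1, by 0.93 ± 0.13 (adjusted p = 0.00075). CYP81F2, which hydroxylates the indole ring, fell by 0.93 ± 0.32 (adjusted p = 0.041). Of 4 paralogues in leucine synthesis, from which chain elongation is thought to have evolved, 3 fell and IPMI SSU1 rose by 1.19 ± 0.10 (adjusted p = 7.93e-05). IPMS2, the isopropylmalate synthase related to the MAM enzymes, fell by 1.08 ± 0.13 (adjusted p = 0.00043).

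Of 11 genes of glucosinolate transport and breakdown, NSP2 (11.3 to 16.5 normalized counts in the libraries labelled vcs-6, against 1.18 to 6.84 in WT) passed the filter only through the libraries where it was high and is left out of the count. Of the other 10, 4 fell and 3 rose, in the comparison that called 51.5% of all genes, and 24.8% lower. The myrosinase TGG2 had 891.0 ± 183 normalized counts in the libraries labelled vcs-6 and 32262 ± 4137 in WT, a change of -5.19 ± 0.17 (adjusted p = 6.5e-06). The myrosinase TGG1 had 17499 ± 1708 in the libraries labelled vcs-6 and 92895 ± 3458 in WT (-2.41 ± 0.13, adjusted p = 1.9e-05). NSP5, a nitrile-specifier protein, rose by 1.32 ± 0.11 (adjusted p = 8.17e-05). Of 9 genes of upstream control and sulfur supply, 3 fell. They were SDI2 by 1.01 ± 0.30 (adjusted p = 0.025) and APK2, which makes the sulfate donor, by 0.91 ± 0.20 (adjusted p = 0.0070). The third was SLIM1, a regulator of sulfur starvation, by 0.36 ± 0.13 (adjusted p = 0.046).

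The DNE1 overexpressors asked what added DNE1 changes. MAM3 was the only one of the 10 genes called: it fell in OE1, in a comparison that called 0.139% of 21631 genes (30 genes, and 268 with the batch as a replicate block) and 0.0277% of them lower. It also fell with OE1 and OE2 in 1 contrast (0.365% of genes called, 0.0324% lower; 79 genes, and 534 with the block), and in OE2 alone it was not called (0 of the 10 genes, 0.171% of all; 37 genes, and 253 with the block). All 6 overexpressor libraries lay below all WT libraries for MAM3 and above them for MYB28. When both lines were set against WT, 5.39% of all genes had groups that did not overlap. The 3 comparisons share the same WT libraries.

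MAM3 had 539.8, 568.4 and 463.7 normalized counts in OE1 and 711.4, 642.1 and 683.9 in OE2, against 1277, 888.3 and 906.3 in WT of batches 1 to 3. OE1 lay below OE2 in every library, and WT of batch 1 was the highest of all 9. The change was -0.95 ± 0.15 in OE1 (adjusted p = 0.047), -0.57 ± 0.15 in OE2 (adjusted p = 0.35) and -0.76 ± 0.13 in both together (adjusted p = 0.043). With the batch as a replicate block the adjusted p was 0.013 in OE1, 0.099 in OE2 and 0.011 in both together. Within batches MAM3 was lower in all 3, by 0.643 to 1.241 in OE1 and by 0.406 to 0.843 in OE2. The call in OE1 was lost without any 1 of its 6 libraries (adjusted p = 0.052 to 0.23), and the call in both lines without any 1 of 8 of the 9 libraries (adjusted p = 0.0811 to 0.203), the exception being WT of batch 2 (0.0499). The call in OE1 was lost with edgeR (0.056), with no filter (0.050) and with library size as the only scaling (0.10), and the last also ended the call in both lines (0.092). In the authors' deposited table the MAM3 value for the overexpressors is -0.64 with an adjusted p of 0.00015. OE1 and OE2 differed by -0.38 ± 0.15 for MAM3, with no overlap (4.13% of all genes), but this did not pass the test (limma, adjusted p = 1.00, unadjusted p = 0.031). None of the 10 genes was called between the 2 lines, and 1 had an unadjusted p under 0.05; the share called over all genes was 0%.

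MAM1, the tandem neighbour of MAM3, had 18108, 18164 and 23276 normalized counts in OE1 and 17555, 16695 and 20269.7 in OE2, against 19512, 10753 and 22410 in WT. The groups overlapped and the change was 0.23 ± 0.30 in OE1 and 0.11 ± 0.30 in OE2. MAM3 over MAM1 within a library was 0.0199 to 0.0313 in OE1 and 0.0337 to 0.0405 in OE2, against 0.0404 to 0.0826 in WT. In the same libraries leaf markers summed to 2786286 to 4048152 normalized counts in OE1 and 2599293 to 3983394 in OE2, against 2421659 to 3743589 in WT, and seed markers to 12.1 to 24.3 in OE1 and 13.6 to 1473 in OE2, against 279.3 to 1432 in WT. No marker of these lists was called in either line, and their part in the MAM3 values was not tested.

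MYB28 had 4789, 7155 and 8350.03 normalized counts in OE1 and 5709.6, 9199.7 and 5737 in OE2, against 4450.2, 4461 and 4294 in WT. Every overexpressor library lay above every WT library, and the WT libraries were closely grouped. The change of 0.58 ± 0.28 in OE1, 0.61 ± 0.28 in OE2 and 0.59 ± 0.24 in both did not pass the test (adjusted p = 0.77, 0.79 and 0.50). In the authors' deposited table MYB28 has 0.49 with an adjusted p of 0.016. MYB29 had 1144, 1838 and 3751 in OE1 and 1625, 2104 and 2578 in OE2, against 1628, 1362 and 2692 in WT, and its groups overlapped (0.13 ± 0.47 and 0.19 ± 0.47).

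CYP83A1 had 14790, 17054 and 22890.4 normalized counts in OE1 and 21142, 17678 and 18974 in OE2, against 13955, 12574 and 15812 in WT. It was higher than WT of the same batch in all 3 batches in both lines, but was not called (0.35 ± 0.20 and 0.45 ± 0.20, adjusted p = 0.83 and 0.77). BCAT4, CYP79F1, CYP79F2, SUR1 and UGT74C1 had changes from -0.10 to 0.40 in the lines and none was called. The median of the 10 genes was 0.19 in OE1 and 0.23 in OE2, and that of all genes was -0.003 and -0.02. Of the other 21 aliphatic genes tested, 19 had a positive change in both lines together, with a median of 0.37 and 0 called, and 52.3% of all genes had a negative one. No gene of the indole, breakdown, sulfur or leucine lists was called in either line.

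In the dne1 mutant, which asked what loss of DNE1 changes, none of the 10 genes was called (limma; 0 had an unadjusted p under 0.05, and edgeR and DESeq2 called 0). The comparison called 0.0185% of all genes. Their changes ran from -0.29 (BCAT4) to 0.09 (MYB28), with 9 negative and a median of -0.10, against -0.005 over all genes. MAM3 had 879.7, 1044 and 912.6 normalized counts in dne1, against 1277, 888.3 and 906.3 in WT, with overlapping groups. The dne1 library of batch 1 was the lowest of its group for all 10 genes. CYP79F1 had 5209.5, 12528 and 13413 in dne1, against 10282, 8497 and 13948 in WT. For none of the 10 genes did all 3 batches give the same sign. The standard errors ran from 0.15 for MAM3 to 0.47 for MYB29, so changes as small as these could not be told from the spread between libraries.

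Overexpression of the D153N form asked whether the substitution changes what added DNE1 does. None of the 10 genes was called against WT of batches 7 to 9 (limma; 2 had an unadjusted p under 0.05, edgeR called 0 and DESeq2 called 1), where 15.9% of all 21124 genes were called. These were 1920 higher and 1445 lower, against 2172 and 724 with library size as the only scaling, and 2125 in all with the batch as a replicate block. MAM3 had 1358, 1028 and 1271 normalized counts in the D153N line, against 1632, 1189 and 1108 in WT, with overlapping groups (-0.09 ± 0.17, adjusted p = 0.75). MYB28 had 2611, 4468 and 3785, against 2012, 2953 and 2124 in WT, higher within all 3 batches although the groups overlapped. Its change of 0.60 ± 0.23 did not pass the test (adjusted p = 0.11), but did with the batch as a replicate block (0.040), with DESeq2 (0.0485) and without the D153N library of batch 7 (0.030). UGT74C1 had 2219, 2294 and 2282, against 2011, 1971 and 1734 in WT, the only one of the 10 genes with groups that did not overlap (39.6% of all genes; 0.25 ± 0.09, adjusted p = 0.089).

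The D153N library of batch 7 was the highest of its group for all enzymes of the list but UGT74C1, for which it was lowest. WT of batch 7 was also the highest of its set for the same enzymes, other than CYP83A1. MAM1 had 24404, 10371 and 13760.4 normalized counts in the D153N line, against 18692, 17478 and 13867 in WT, and BCAT4 had 12314, 5779 and 5777, against 8985, 6727 and 6401. The median of the 10 genes was 0.11 and that of all genes 0.000. Outside the list, the comparison called 15.9% of all genes. Of 15 indole genes 1 was called, the activator MYB34, which rose by 0.91 ± 0.14 (adjusted p = 0.0097). The indole list had 4 positive and 11 negative changes, with a median of -0.22. Of 10 tested genes of glucosinolate transport and breakdown 2 were called. ESM1 and NSP5 rose by 1.36 ± 0.22 and 1.17 ± 0.13 (adjusted p = 0.012 and 0.0047). That list had 5 positive and 5 negative changes, with a median of -0.05. Of the 4 leucine paralogues 2 were called: IPMI SSU1 rose by 0.53 ± 0.08 and IPMS2 fell by 0.43 ± 0.08 (adjusted p = 0.0087 and 0.021). Leaf markers summed to 1712225 to 2092389 in the D153N line, against 2045887 to 2702155 in WT, and 1 of 8 was called lower. Seed markers summed to 17.2 to 218.6 in the D153N line, against 582.0 to 661.1 in WT. CRC (0 to 1.63 in the D153N line, against 16.3 to 132 in WT) passed the filter only through WT, EM1 was too low to test, and 1 of the other 3 was called lower. Root markers summed to 49012 to 56887, against 39170 to 57521 in WT, with 1 of 11 called lower. Vascular markers summed to 12219 to 15464 in the D153N line, against 15093 to 18180 in WT, with 0 of 7 called. The same comparison called 1445 of 21124 genes lower. The part of these markers was not tested.

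Differences between the lines were tested directly, each line against WT of its own batches, in a fit of all 24 libraries. The libraries labelled vcs-6 minus the mean of OE1 and OE2 gave 4 of the 10 genes called, all lower, where 35.5% of 22214 genes were called and 17.1% lower. They were BCAT4 (-1.38 ± 0.38, adjusted p = 0.0079), MYB29 (-1.64 ± 0.56, 0.028), MAM3 (-0.74 ± 0.25, 0.028) and CYP79F1 (-1.17 ± 0.45, 0.049). The libraries labelled vcs-6 minus the D153N line gave 3 of the 10, all lower, where 26.3% of genes were called and 13% lower. They were MAM3 (-1.41 ± 0.27, adjusted p = 0.00069), BCAT4 (-1.40 ± 0.41, 0.015) and MYB29 (-1.77 ± 0.60, 0.034). Left out 1 at a time, 12 of 15 libraries ended the call of CYP79F1 against the overexpressors (adjusted p = 0.0580 to 0.149), 5 that of MYB29 (0.0507 to 0.103) and 5 that of MAM3 (0.0612 to 0.100). Against the D153N line, 7 of 12 ended the call of MYB29 (0.0562 to 0.104), while BCAT4 in both contrasts and MAM3 against D153N were called with every library left out. D153N minus the overexpressors gave 0 of the 10 (limma; 1 had an unadjusted p under 0.05), where 2.15% of genes were called. MAM3 differed there by 0.67 ± 0.25 (adjusted p = 0.19), so the MAM3 value of the overexpressors was not shown to differ from that of the D153N line. MYB28 differed by 0.01 ± 0.38.

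The 2 WT sets of 2019 were also set against each other. None of the 10 genes was called in WT of batches 7 to 9 minus WT of batches 4 to 6 (limma; 0 had an unadjusted p under 0.05; 0.00917% of genes called). MYB29 had 1187, 1633 and 1196 normalized counts in WT of batches 7 to 9, against 2096, 2449 and 1751 in WT of batches 4 to 6, groups that did not overlap (-0.65 ± 0.31; 19.7% of all genes did not overlap). MYB28 differed by -0.55 ± 0.26.

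The 10 genes varied more between libraries of a group than the median gene at or above the lowest of their mean levels. The genes compared were not matched to each of the 10 by level. The SD of log2 values within groups ran from 0.23 for UGT74C1 to 0.57 for MYB29, and the median over 8026 genes at or above the lowest of their mean levels was 0.18; all 10 were above it. Deviations from the group means moved together for most enzymes over the 24 libraries: BCAT4 and CYP79F1 correlated at 0.94, MAM1 and BCAT4 at 0.91, and the 21 pairs of enzymes without MAM3 had a median of 0.82. MAM3 correlated with the other 7 enzymes at 0.18 to 0.42. MYB29 correlated with the 8 enzymes at 0.11 to 0.80, with a median of 0.71, and MYB28 at -0.12 to 0.70, with a median of 0.06. Values of a library share its depth and batch, so these correlations describe the set and carry no p.

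**Figure D5:**
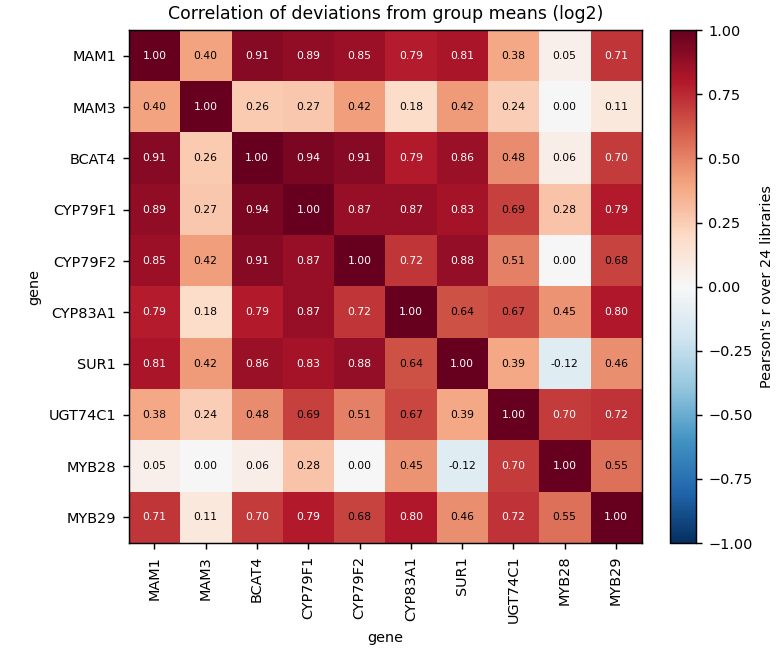
Pearson's r between genes over the 24 libraries, from log2 values less the mean of their group; both axes list the 10 genes, and colour runs from -1 to 1. The enzymes other than MAM3 and UGT74C1 form a block of high r, while MAM3 has an r of 0.42 or less with every other gene.

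As deviations from WT of the same batches, over the 15 libraries of the lines, the mean profile of the 8 enzymes was followed most closely by CYP79F1 (r = 0.98), which is one of the 8. MAM3, CYP83A1 and MYB28 followed it least (r = 0.57, 0.45 and 0.31). Among 22204 genes outside the list the closest were IMD1 (named IPMDH1 above, r = 0.96), AT1G21440 (0.95), BAT5 (0.95), AKN2 (named APK2 above, 0.95) and PMSR2 (0.94). Their changes in the libraries labelled vcs-6 were -0.66, -0.43, -1.39, -0.91 and -0.23.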

How the data were processed

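Per gene and library the table gives a signal that the authors deposited: read counts over a size factor, from DESeq2 1.24.0 per the file header. The submitters' processing notes name bcl2fastq 2.17.1.14, HISAT2 2.1.0, DESeq2, HTSeq and build TAIR10; roles, annotation release and strand setting are not given in the sources used here. Extraction used TRIZOL and the kit was Lexogen SENSE, per the labels. All values were multiples of a step per library (within 0.000001), so reads could be recovered for edgeR 4.0.16 and DESeq2 1.42.0, run as alternatives. The authors also deposited log2 fold changes and p-values, adjusted ones, of their own, quoted only where named. Of 27782 genes, 1208 are missing in 2018 and 660 in 2019.

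The test was limma 3.58.1 (trend, two-sided, R 4.3.3) on log2 of the value plus 1, for genes that reached 10 in 3 or more libraries. One fit held the 12 libraries of batches 1 to 3, further fits the 6 libraries of vcs-6 or D153N with their WT, and all 24 served for differences of effects. The procedure was tested on simulated data. Members and lists were chosen with earlier results of these data known, so their calls are no independent support. By rule the text names all 10 genes, up to 4 called genes per other list with the largest change, and the 5 most alike genes; other names were chosen after their values were seen. Alternatives were pseudocounts of 0.5 and 5, no filter, TMM and library size scaling, edgeR, DESeq2, the batch as a replicate block, all 24 libraries in the fit and each library left out. A combination of edgeR and the replicate block was chosen after seeing the data.

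The labels give shared batches, so batch numbers pair libraries. In batches 1 to 3, the 18 same-batch pairs of libraries had deviations from group means that correlated at 0.14 to 0.68, and the 36 other pairs at -0.58 to 0.22. In batches 7 to 9 the ranges were 0.07 to 0.23 for 3 pairs and -0.33 to 0.17 for the other 6. For vcs-6 no block could be fitted, as its columns do not show which library belongs to which batch. Promoter windows without a motif match are not printed.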

Additional observations from a re-analysis of the deposited data

Results flagged for a closer look

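For 7 values the effects of 2 lines differed in a direct test (limma, adjusted over all genes). Between the libraries labelled vcs-6 and the DNE1 overexpressors the effect differed by -0.74 for MAM3, -1.38 for BCAT4, -1.17 for CYP79F1 and -1.64 for MYB29. Between the libraries labelled vcs-6 and the D153N line it differed by -1.41 for MAM3, -1.40 for BCAT4 and -1.77 for MYB29. All were lower in the libraries labelled vcs-6. The difference for CYP79F1 lies close to the threshold (adjusted p = 0.049), and 12 of 15 libraries ended its call when left out. Against the overexpressors, 5 of 15 ended the call of MYB29 and 5 of 15 that of MAM3. Against the D153N line, 7 of 12 ended that of MYB29. Library size scaling ended the calls of CYP79F1 and MAM3 against the overexpressors (adjusted p = 0.061 and 0.10). Between WT of batches 7 to 9 and WT of batches 4 to 6, MYB29 differed by -0.65 ± 0.31, which was not called. Leaf markers fell in the same libraries, and their part was not tested. Groups of 3 libraries are too small for a test of outlying libraries.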

How the results depend on the processing

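No called change of the 10 genes turned its sign under any alternative run. In the libraries labelled vcs-6 the calls of MAM1, MAM3, BCAT4, CYP79F2 and MYB29 held in all 8 alternatives and with each of 6 libraries left out, and between 5 and 8 of the 10 genes were called with a library left out. Of the 10 genes, OE1 gave 0 with no filter, with edgeR and with library size scaling, and 0 to 0 with a library left out; both overexpressors gave 0 with library size scaling and 0 to 1. The D153N line gave 1 with DESeq2, with the replicate block and with edgeR plus the block, and 0 to 1. Library size scaling gave 2 of 10 for vcs-6 minus the overexpressors (4 as reported; 1 to 5 with a library left out), and vcs-6 minus D153N gave 2 to 3. Without WT of batch 3, MAM1 (-1.20, adjusted p = 0.034) and CYP79F2 (-0.82, 0.028) were also called against the overexpressors, and MAM1 without library c (-1.18, 0.044).

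Over all genes, dne1 gave 2 calls with a pseudocount of 0.5, 7 with DESeq2, and 2 to 7 with a library left out (4 as reported). OE1 gave 17 (edgeR), 208 (DESeq2), 19 (library size), 268 (replicate block), 101 (all 24 libraries) and 248 (edgeR with block), and 10 to 31 with a library left out (30 as reported). OE2 gave 172, 253, 101 and 255 with DESeq2, block, all 24 and edgeR with block, and 5 to 35 (37 as reported). Both together gave 52, 337, 534, 195 and 455 with edgeR, DESeq2, block, all 24 and edgeR with block, and 14 to 73 (79 as reported). D153N gave 2125 with the block and 2113 with edgeR plus block, and 754 to 4084 (3365 as reported), and vcs-6 8743 to 10097 (10988 as reported). Library size scaling moved the median of all genes by 0.12 in vcs-6, 0.13 in vcs-6 minus the overexpressors and 0.10 in D153N minus the overexpressors, and split the D153N calls into 2172 higher and 724 lower, against 1920 and 1445 as reported. The block brought MYB28 in the D153N line past the threshold and changed no other call of the 10 genes. The cause of these shifts was not tested. The lowest library value of the 10 genes was 363.0 normalized counts, and each group held 3 libraries. The part of depth and of group size in the precision was not tested.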
